A study of Mus musculus with 6 samples.

Results

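The genes described here are Cd28 and 6 ligands of the B7 family, Cd80, Cd86, Icosl, Cd274, Cd276 and Vsir, in mouse macrophages grown from bone marrow. They were chosen by name as the receptor that the study deleted and the B7 ligands a macrophage can show to T cells, and they are 7 of the 14574 genes listed in at least 1 library. Marrow of Cd28 knockout (Cd28 KO) mice and of wild-type (WT) C57BL/6J mice, all 6 to 10 weeks old, was cultured for 7 days with 25 ng/ml of human M-CSF, renewed every 2 days, and 10% fetal calf serum, and nothing else was given. Each genotype had 3 RNA sequencing libraries, numbered 1 to 3 in their titles. The labels do not say whether the libraries came from separate animals, and p-values here reflect library-to-library spread only. Neither the deleted part of Cd28 nor the sex of the mice is stated in the labels. Values are FPKM, which relate fragments to transcript length and to the mapped fragments of the library, so that levels of different genes can be compared per length. Their sum was 510937 to 576313 per library, and the depth in reads is unknown.

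B7 ligands are membrane proteins of antigen-presenting cells that meet receptors of the CD28 family on T cells. CD80 and CD86 bind both CD28, which strengthens T cell activation, and CTLA-4, which restrains it. ICOSL binds ICOS, a costimulatory receptor. PD-L1, the product of Cd274, binds the inhibitory receptor PD-1 and also CD80, while CD276 (B7-H3) and VISTA, the product of Vsir, are known mainly as restraints on T cells. Resting macrophages usually carry little CD80 and CD86, and microbial products and interferon-gamma raise CD86, CD80 and PD-L1.

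The cultures carried the RNA of macrophages. All 8 macrophage markers were listed in every library, among them Csf1r, the receptor for M-CSF, at 830 to 972 FPKM. The summed FPKM of the markers was 14779 to 16869 for Cd28 KO and 14104 to 14783 for WT. Most of it came from Lyz2 (9652 to 12716 FPKM), and Mertk was the lowest of the 8 (4.63 to 7.60 FPKM). The replicate 3 library of each genotype stood apart from the other 4 libraries. The Y-linked genes Eif2s3y, Ddx3y, Kdm5d and Uty were listed in these 2 libraries and were at 0 in the other 4. Eif2s3y stood there at 39.1 FPKM for Cd28 KO and 31.8 for WT. Replicate 3 thus held male cells, and it cannot have come only from the animals of replicates 1 and 2. Results are therefore also given for replicates 1 and 2 alone and for the replicate 3 pair. Pairs here match libraries by their number. The labels state no pairing, and within replicates 1 and 2 the matching is assumed. In bulk RNA of this kind, fewer cells of a type and less RNA per cell cannot be told apart.

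The 7 genes spanned a wide range of levels, with Vsir far above the rest and Cd80 at the bottom. Averaged over the 6 libraries, Vsir stood at 97.9 FPKM, Cd28 at 32.7, Cd86 at 10.8, Cd274 at 10.8, Icosl at 8.52, Cd276 at 3.58 and Cd80 at 1.85 FPKM. Vsir exceeded every other member in all 6 libraries, with no overlap between its lowest value, 86.8 FPKM, and the highest of Cd28, 51.1 FPKM. Icosl and Cd276 were also separate neighbours in this order, at no less than 6.83 and no more than 6.03 FPKM. The ranges of Cd86, Cd274 and Icosl overlapped, and Cd86 exceeded Cd274 in 2 of 6 libraries only, both of them replicate 3. The ranges of Cd28 and Cd86 and of Cd276 and Cd80 overlapped as well, but in each library Cd28 was above Cd86 and Cd276 above Cd80.

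**Figure D1:**
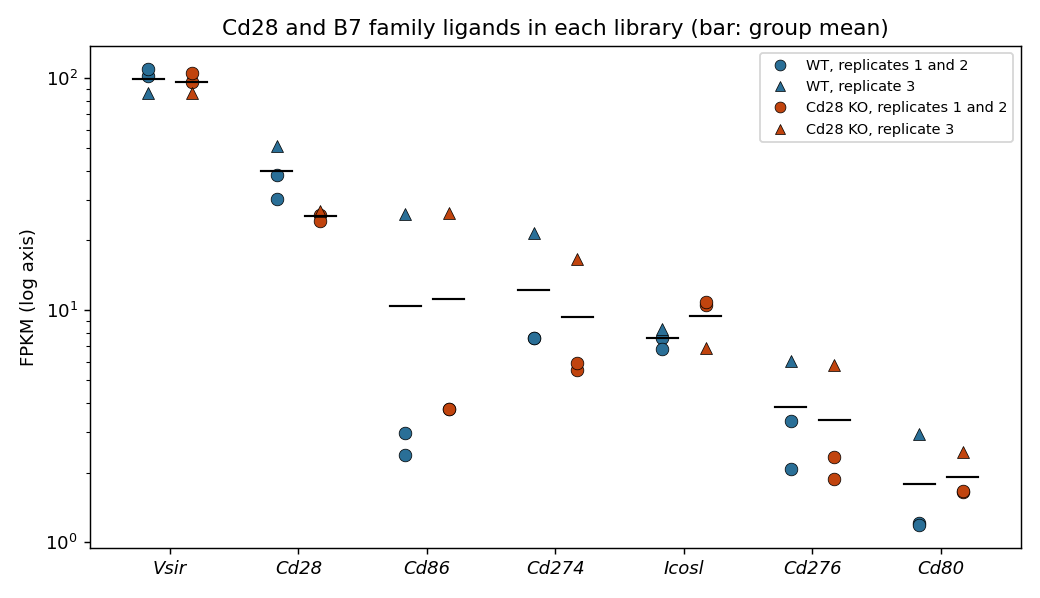
FPKM of each member in every library on a log axis, with WT in blue, Cd28 KO in red, replicate 3 as triangles and the group mean as a bar. The Cd28 KO values of Cd28 lie between 24.2 and 26.9 FPKM and below all WT values, while Cd86 and Cd274 split by replicate, with triangles at 26.0 and 26.1 FPKM for Cd86.

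Cd28 RNA was lower in all Cd28 KO libraries than in the lowest WT library, but it was not absent. Cd28 (Entrez 12487, chromosome 1, 60746388 to 60773359, GRCm38) stood at 25.7, 24.2 and 26.9 FPKM in Cd28 KO replicates 1, 2 and 3 and at 38.2, 30.1 and 51.1 FPKM in WT. The Cd28 KO libraries lay close together and the WT libraries spread widely, with WT replicate 3 the highest. Cd28 KO over WT was 0.672, 0.803 and 0.527 in pairs 1, 2 and 3. On the log2(FPKM + 1) scale the difference was -0.59, with a 95% interval of -1.03 to -0.14, and 0.265% of the 10172 tested genes had a more negative one. The limma adjusted p over all tested genes was 0.9995, and it was 0.183 with the replicate number as a block and 0.175 in replicates 1 and 2 alone, where the difference was -0.43. Without WT replicate 3 the difference was -0.39. Separation in this direction was found in 2.87% of all tested genes.

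In the KO libraries Cd28 still ranked at the 75.5th to 78.9th percentile of listed genes, against the 79.8th to 88.5th in WT. The reference transcript of Cd28, in GENCODE M21 on GRCm38, has 4 exons and 4347 bases, of which 654 are coding. Exon 4 (60769657 to 60773359) holds 85.2% of these bases, most of them after the coding sequence, and exon 2 (60762979 to 60763335), wholly coding, holds 8.2%. A gene-level FPKM is set mostly by the longest exon and cannot show which exons were read, so it does not check the loss of a short coding exon.

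T cell RNA was near the lower end of the files in the same libraries. Of 14 T cell markers, Cd3d and Trat1 were at 0 in all 6 libraries, and Cd3e and Cd3g, chains of the T cell receptor complex, were listed in WT replicate 3 only, at 0.07 and 0.21 FPKM. The 14 markers had a summed FPKM of 5.27 to 9.27 for Cd28 KO and 7.78 to 9.69 for WT, most of it from Lat (2.46 to 6.00 FPKM) and Cd247 (2.23 to 2.96 FPKM). Without that pair, which was singled out after the values were seen, the other 12 had a summed FPKM of 0.30 to 2.79 for Cd28 KO and 0.73 to 2.19 for WT, below the Cd28 level of the same library throughout. Both maxima were the replicate 3 libraries, and the other 4 libraries were at 0.30 to 0.93 FPKM. The other receptors of the CD28 family were also near 0. Ctla4 was listed in WT replicate 1 alone and Pdcd1 in Cd28 KO replicate 3 alone, each at 0.06 FPKM, while Icos ranged from 0.10 to 0.25 FPKM and Btla from 0.07 to 0.23 FPKM.

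**Figure D2:**
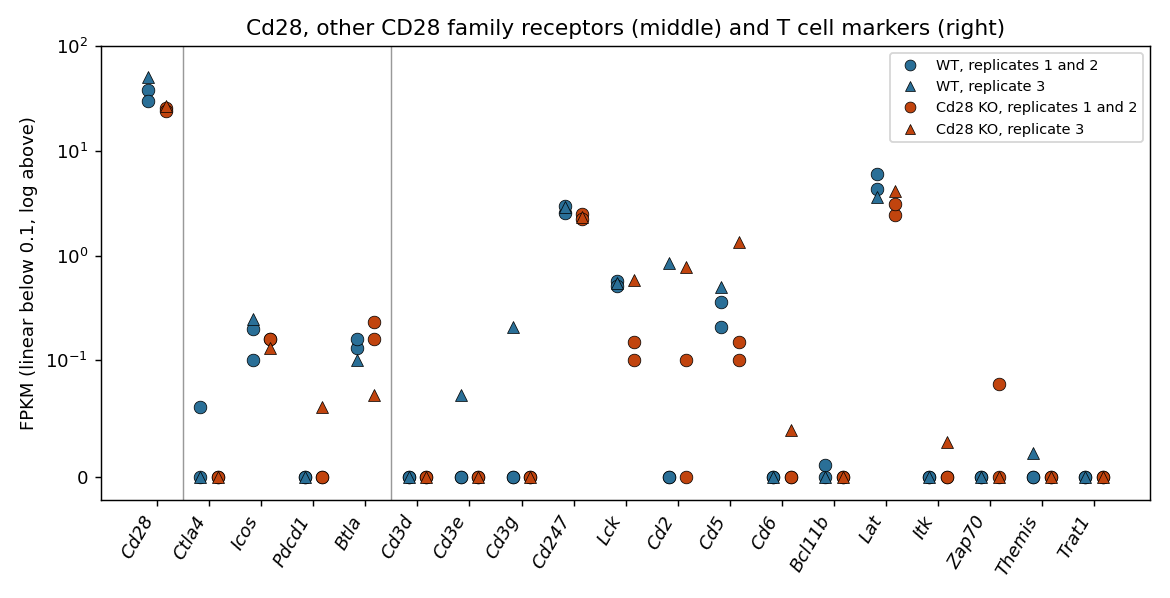
FPKM in every library of Cd28 (left), of the other CD28 family receptors (middle) and of 14 T cell markers (right), on an axis that is linear below 0.1 and logarithmic above, with replicate 3 as triangles. Cd28 lies at 24.2 to 51.1 FPKM, while Cd3d and Trat1 are at 0 in every library and Lat, the highest marker, reaches 6.00 FPKM.

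Cd86 and Cd80, the ligands of CD28 itself, did not pass the test between genotypes. Cd86 (Entrez 12524, chromosome 16, 36568956 to 36666158) stood at 3.76, 3.77 and 26.1 FPKM in Cd28 KO and at 2.96, 2.37 and 26.0 FPKM in WT. Both replicate 3 libraries were high and the groups overlapped. Cd28 KO over WT was 1.27, 1.59 and 1.01 in pairs 1, 2 and 3, so Cd28 KO was higher in each pair, as were 15.0% of all tested genes, with nearly the same value in pair 3. The log2 difference was 0.26, with a 95% interval of -2.01 to 2.52 and a limma adjusted p of 0.9995. With the replicate block the interval was -0.04 to 0.56 around the same 0.26. In replicates 1 and 2 alone the log2 difference was 0.38 (95% interval 0.09 to 0.68), with a limma adjusted p of 0.263.

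Cd80 (Entrez 12519, chromosome 16, 38457430 to 38495958) was the lowest member, at 1.65, 1.66 and 2.44 FPKM in Cd28 KO and 1.21, 1.19 and 2.94 FPKM in WT. Cd28 KO was higher in pairs 1 and 2, at 1.36 and 1.39 times WT, and lower in pair 3, at 0.830 times. The log2 difference was 0.12 (95% interval -0.51 to 0.74, limma adjusted p = 0.9995), and it was 0.27 (-0.02 to 0.57) in replicates 1 and 2. Cd86 exceeded Cd80 in every library, by 2.28, 2.27 and 10.7 times in Cd28 KO and 2.45, 1.99 and 8.84 times in WT. This ratio within a library, which does not depend on how the library was scaled, had an exact two-sided permutation p of 0.7 between genotypes, where 3 against 3 cannot go below 0.1. Together Cd80 and Cd86 made 5.41, 5.43 and 28.6 FPKM in Cd28 KO and 4.17, 3.56 and 28.9 FPKM in WT.

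Icosl, which encodes the ligand of ICOS, was higher in Cd28 KO in 2 of the 3 pairs. It stood at 10.6, 10.9 and 6.90 FPKM in Cd28 KO and at 7.60, 6.83 and 8.35 FPKM in WT (Entrez 50723, chromosome 10, 78069368 to 78079525). Cd28 KO over WT was 1.39 and 1.60 in pairs 1 and 2 and 0.826 in pair 3, so the groups overlapped through replicate 3. The log2 difference was 0.26 (95% interval -0.19 to 0.72, limma adjusted p = 0.9995) over all libraries and 0.51 (0.27 to 0.76) in replicates 1 and 2, where the limma adjusted p was 0.0858. Of the 6 ligands, Icosl was the one with replicate 3 below replicates 1 and 2 in Cd28 KO, at 0.643 times their mean, and above them in WT, at 1.16 times.

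Cd274, which encodes PD-L1, was lower in Cd28 KO in each pair by a similar factor. It stood at 5.52, 5.91 and 16.6 FPKM in Cd28 KO and at 7.63, 7.57 and 21.6 FPKM in WT (Entrez 60533, chromosome 19, 29362107 to 29388095). Cd28 KO over WT was 0.723, 0.781 and 0.767, although the groups overlapped because replicate 3 was high in both. The log2 difference of -0.36 had a 95% interval of -1.55 to 0.83 without a block and of -0.61 to -0.11 with the replicate block, at limma adjusted p values of 0.9995 and 0.428. In replicates 1 and 2 alone it was -0.36 with a limma adjusted p of 0.214. A lower Cd28 KO value in each of the 3 pairs was found in 13.3% of all tested genes. An antisense transcript is annotated within the span of Cd274. The labels do not say whether strand was used in counting, and overlap of exons was not checked. Reads from the 2 may therefore not have been told apart.

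Cd276 and Vsir showed no difference beyond the spread between libraries. Cd276 (Entrez 102657, chromosome 9, 58524300 to 58555033) stood at 1.88, 2.34 and 5.84 FPKM in Cd28 KO and 3.34, 2.07 and 6.03 FPKM in WT. Replicate 3 was again the highest in both genotypes, and Cd28 KO over WT changed side among the same-numbered pairs, at 0.563, 1.13 and 0.968. That change rests on the assumed matching. With replicates 1 and 2 of WT exchanged, Cd28 KO would be the lower in each pair. Its log2 difference was -0.17 (95% interval -1.13 to 0.79, limma adjusted p = 0.9995). The start of Cd276 overlaps Gm10657, annotated on the opposite strand, so the limit on strand given for Cd274 may hold here too. Vsir (Entrez 74048, chromosome 10, 60346851 to 60430294) stood at 96.7, 105.2 and 86.8 FPKM in Cd28 KO and 102.1, 109.9 and 86.8 FPKM in WT. Its same-numbered pairs were at 0.947, 0.957 and 0.999 times WT, the tightest of the 7 genes when matched in this way. Its log2 difference was -0.05 (95% interval -0.34 to 0.25, limma adjusted p = 0.9995). Vsir lies within Cdh23 on the opposite strand, and Cdh23 itself did not exceed 0.04 FPKM in any library.

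By limma 0 of the 7 genes were called at an adjusted p below 0.05, and 1, Cd28, had an unadjusted p below that value (0.0166), as did 2.49% of all tested genes. All 7 had passed the filter of a mean of at least 1 FPKM. Over all 10172 tested genes 0.0197% were called without a block, 0.177% with the replicate block, 0.275% with a batch term for replicate 3 and 0.698% in replicates 1 and 2, and none of the 7 was among them in any of these 4 fits. With limma's array weights, which gave the replicate 1 libraries the most weight (5.97 and 4.81) and the replicate 3 libraries the least (0.180 and 0.177), 9.12% of all tested genes were called, 5.94% as higher and 3.19% as lower. In that fit Cd28 was called lower (log2 -0.49, limma adjusted p = 0.0230) and Icosl higher (log2 0.45, limma adjusted p = 0.0214). The groups did not overlap for 1 of the 7 genes, Cd28, against 6.71% of all tested genes. The median log2 difference of the 6 ligands was 0.034, beside -0.0031 over all tested genes, and on the TPM scale these medians were -0.0044 and -0.06.

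**Figure D3:**
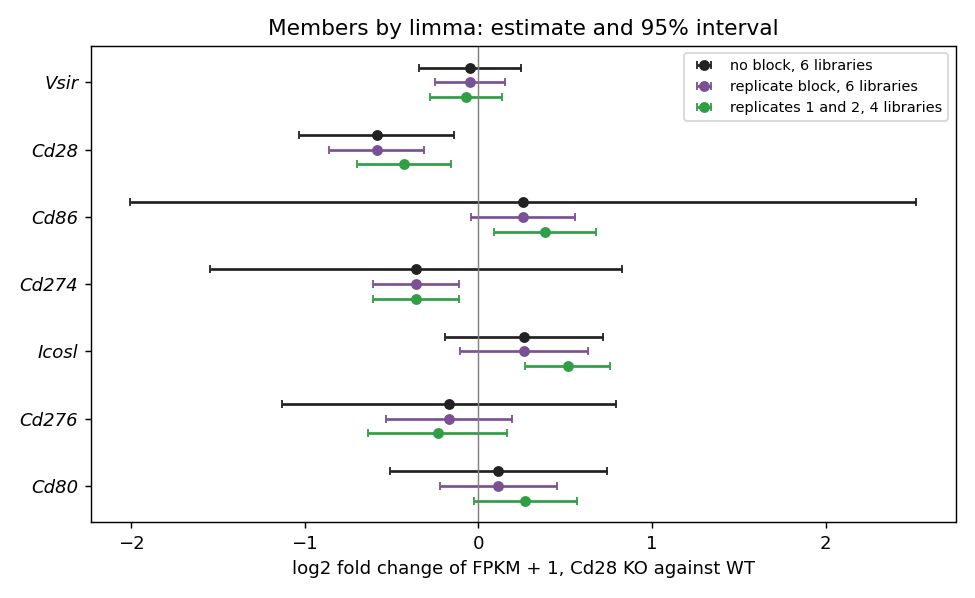
Log2 fold change of FPKM + 1 in Cd28 KO against WT for each member, with 95% intervals from limma, without a block, with the replicate block, and in replicates 1 and 2 alone. Cd28 is the gene whose interval stays below 0 in all 3 fits, and the interval of Cd86 narrows from -2.01 to 2.52 without a block to -0.04 to 0.56 with it.

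For Cd86, Cd274, Cd276 and Cd80 replicate 3 exceeded the other replicates of both genotypes by a larger factor than separated the genotypes in any pair. Cd86 stood 6.94 times higher in replicate 3 than the mean of replicates 1 and 2 in Cd28 KO, and 9.75 times higher in WT. Cd274 stood at 2.90 and 2.84 times, Cd276 at 2.77 and 2.23 times, and Cd80 at 1.47 and 2.45 times in Cd28 KO and WT. Vsir did not share this, at 0.860 and 0.819 times, nor did Icosl, and Cd28 stood at 1.08 and 1.496 times. A ratio of at least 2 in both genotypes was reached by 3 of the 7 genes, Cd86, Cd274 and Cd276, against 2.88% of all tested genes, and 37 tested genes had a larger ratio than Cd86 in both genotypes. Tested genes at 0 in replicates 1 and 2 but listed in replicate 3 count as above both limits. These are values of 1 library per genotype, with no replicate check. The Y-linked genes moved with replicate 3, as given above, and so did genes of other kinds. Named after their values were seen, Cxcl1 stood at 81.9 and 132.7 times, Il1b at 14.5 and 8.19 and Nfkbia at 3.99 and 3.36 in Cd28 KO and WT. Nfkb1 (0.80 and 0.86) and Ifit1 (0.91 and 0.90) were not raised. A few markers of other cells moved with replicate 3 as well. Dendritic cell markers summed to 6.07 and 6.05 FPKM in the replicate 3 libraries and 3.14 to 4.95 FPKM in the others. Ccr7, the highest of them, stood at 2.60 and 2.21 FPKM against 0.86 to 1.52. Clec9a was lower there, at 0.04 and 0.07 FPKM against 0.10 to 0.32. Siglech was highest in WT replicate 3 (2.33 FPKM) but not in Cd28 KO replicate 3 (1.39 FPKM). Granulocyte markers summed to 8.53 and 6.29 FPKM against 2.37 to 5.28. Most of this came from S100a8 (4.44 and 3.65 against 0.63 to 2.41) and S100a9 (3.75 and 2.33 against 1.09 to 2.63). No other granulocyte marker exceeded 0.29 FPKM, reached in WT replicate 2. T cell markers other than Lat and Cd247 summed to 2.79 and 2.19 FPKM against 0.30 to 0.93, and none exceeded 1.36 FPKM. Cd2 stood at 0.78 and 0.84 FPKM against at most 0.10, and Cd5 at 1.36 and 0.50 against 0.10 to 0.36. Lck did not set both libraries apart, at 0.58 and 0.55 FPKM against 0.10 to 0.57. Zap70 was listed in Cd28 KO replicate 2 alone, at 0.08 FPKM. The sum of all 14 was highest in WT replicate 2, at 9.69 FPKM. The sums of B cell, NK cell and mast cell markers stayed at or below 3.90 FPKM in every library and were not highest in both replicate 3 libraries. The part of these genes and markers in the result was not tested.

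**Figure D4:**
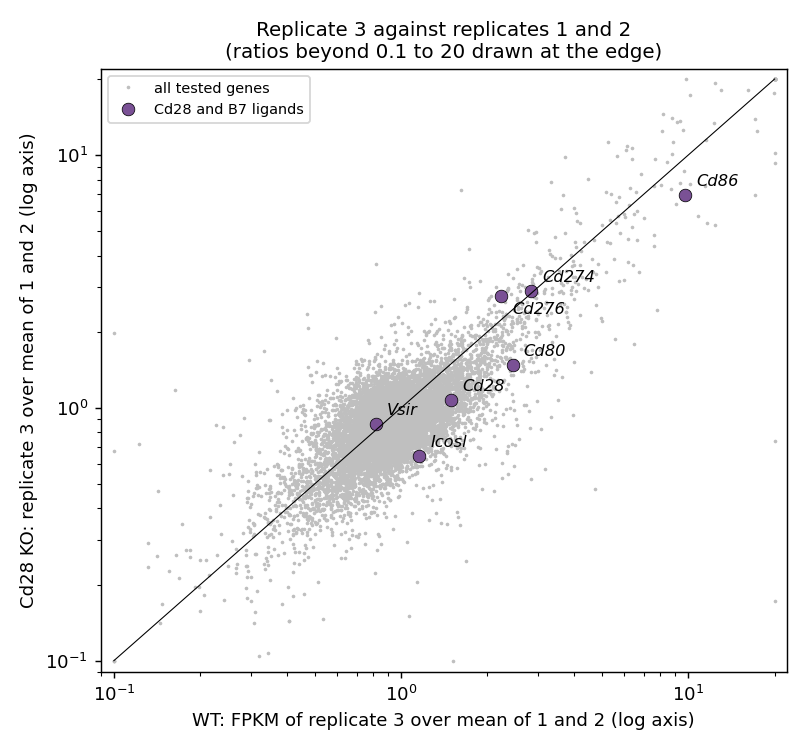
FPKM of replicate 3 over the mean of replicates 1 and 2, in WT (horizontal) and Cd28 KO (vertical), both on log axes, for all tested genes (grey) and the 7 members (purple), with the line of equal ratios. Cd86 lies at 9.75 and 6.94, Cd274 at 2.84 and 2.90, and Vsir at 0.819 and 0.860.

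The make-up of the ligand RNA also differed in replicate 3. In replicates 1 and 2, Vsir gave 80.5% to 84.6% of the summed FPKM of the 6 ligands and Cd86 1.82% to 3.13%. In replicate 3 Vsir gave 59.98% in Cd28 KO and 57.2% in WT, and Cd86 18.1% and 17.1%. The sum itself was 120.03, 129.7 and 144.7 FPKM in Cd28 KO and 124.8, 129.96 and 151.7 FPKM in WT.

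The table of RefSeq promoters (GRCm38.p6) matched 5 of the 7 genes, Cd80, Icosl, Cd274, Cd276 and Vsir, and not Cd28 or Cd86. Sequence is shown for Cd80, Cd274 and Cd276, which were higher in replicate 3 than in replicates 1 and 2 of both genotypes, and for Vsir, which was not. The 250 bases before the annotated start of each transcript are given 5′ to 3′ on the strand of the gene, with capitals marking GC boxes (GGGCGG) and CCAAT boxes (CCAAT) on either strand.
Cd80, chr16:38458683-38458932, plus strand: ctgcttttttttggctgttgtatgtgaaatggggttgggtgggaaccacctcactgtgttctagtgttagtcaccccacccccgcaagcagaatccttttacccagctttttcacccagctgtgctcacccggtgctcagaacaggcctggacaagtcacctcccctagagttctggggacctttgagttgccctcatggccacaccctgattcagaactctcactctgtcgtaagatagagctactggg
Cd274, chr19:29367188-29367437, plus strand: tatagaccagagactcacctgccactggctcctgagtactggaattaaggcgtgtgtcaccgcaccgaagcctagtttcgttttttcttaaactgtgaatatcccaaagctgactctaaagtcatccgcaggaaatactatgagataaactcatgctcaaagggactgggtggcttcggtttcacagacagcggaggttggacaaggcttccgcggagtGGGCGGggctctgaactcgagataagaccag
Cd276, chr9:58555034-58555283, minus strand: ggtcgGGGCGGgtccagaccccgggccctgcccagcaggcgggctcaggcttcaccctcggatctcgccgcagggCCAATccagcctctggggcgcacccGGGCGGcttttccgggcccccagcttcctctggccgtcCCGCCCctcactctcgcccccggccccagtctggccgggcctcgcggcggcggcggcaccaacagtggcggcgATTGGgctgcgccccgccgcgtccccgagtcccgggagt
Vsir, chr10:60346601-60346850, plus strand: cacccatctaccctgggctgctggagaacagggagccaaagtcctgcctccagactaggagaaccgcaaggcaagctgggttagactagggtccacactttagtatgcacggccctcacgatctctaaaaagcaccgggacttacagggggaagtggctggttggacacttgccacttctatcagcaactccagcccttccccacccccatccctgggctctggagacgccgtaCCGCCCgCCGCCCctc
GC boxes were found in Icosl, Cd274, Cd276 and Vsir and not in Cd80, and they occur in 32.7% of the 32851 promoters of the same length. CCAAT boxes were found in Icosl and Cd276 and occur in 33.8% of all promoters. None of the 5 held a TATA box (TATAAA, in 12.4% of promoters), an interferon-gamma activated site (TTCNNNGAA, 7.02%), the core of an interferon-stimulated response element (GAAA, any 2 bases and GAAA, 2.98%) or the NF-kB consensus (3.90%), searched on both strands. The windows differed in base composition, from 50.4% G and C in Cd274 and 52.8% in Cd80 to 60.4% in Vsir, 68.8% in Icosl and 77.6% in Cd276, beside a median of 52.4%. For Cd80 and Cd274 the window lies inside the gene span given above, before a start within it. The bases before the outer end of these genes were not searched. A match or its lack describes these 250 bases only.

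Other genes of the pathway likewise gave no call between genotypes. Of 61 genes listed as partners, relatives, handlers or regulators of the B7 ligands, 54 were listed in at least 1 library and 35 passed the filter, of which limma called 0, with 0 at an unadjusted p below 0.05, beside the 2.49% of all tested genes. None was called with the replicate block, in replicates 1 and 2, or with array weights. The log2 difference was positive for 19 and negative for 16, with a median of 0.0073 beside -0.0031 over all tested genes, and on the TPM scale -0.05 beside -0.06. Of the 35 genes 1 had groups that did not overlap, a smaller share than the 6.71% of all tested genes. It was Ifnar1, a chain of the type I interferon receptor, at 17.7 to 18.4 FPKM in Cd28 KO and 20.4 to 23.2 FPKM in WT (log2 -0.22, limma adjusted p = 0.9995).

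Among the other listed binding partners of the ligands, the partner of VISTA described at acid pH, Selplg, was abundant. None of the rest exceeded 4.13 FPKM, reached by Rgmb in WT replicate 2. Selplg, which encodes the adhesion molecule PSGL-1, stood at 131.7 to 158.6 FPKM in Cd28 KO and 140.7 to 146.5 FPKM in WT, the highest of its list. Igsf11, which encodes another partner of VISTA, ranged from 0.22 to 0.78 FPKM, and Treml2, a proposed partner of CD276, from 1.57 to 3.59 FPKM. Pdcd1lg2, which encodes PD-L2, the second ligand of PD-1, did not exceed 0.12 FPKM in any library, against 5.52 to 21.6 FPKM for Cd274. Of the other 7 B7-related genes, Vtcn1, Btn1a1 and Btn2a2 were at 0 in all libraries, and none of the others exceeded 0.23 FPKM, reached by Vsig4 in WT replicate 1. Btnl2, the highest of them by its mean, reached 0.16 FPKM. Of 7 nectin and PVR family genes 2 were tested, and Pvr, a ligand of TIGIT and CD226, stood at 5.64, 5.99 and 12.8 FPKM in Cd28 KO and 6.52, 6.06 and 15.3 FPKM in WT.

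Costimulatory genes of the TNF family were tested for 5 of 10 members, with 4 positive, 1 negative (Tnfrsf14) and a median log2 of 0.13. Tnfsf9, which encodes the ligand of 4-1BB, was the highest, at 13.9 to 16.3 FPKM in Cd28 KO and 13.2 to 18.2 FPKM in WT. Among 5 tested genes of 7 other checkpoint genes, Cd48, a SLAM family adhesion molecule, was the highest, at 132.8 to 184.4 FPKM in Cd28 KO and 118.01 to 159.01 FPKM in WT. All 6 genes listed for the handling of B7 proteins or their receptors at the surface were tested, with 2 positive and 4 negative. Cd83, whose product protects CD86 from removal by the ubiquitin ligase MARCH1, was the highest, at 66.5, 54.7 and 93.8 FPKM in Cd28 KO and 54.9, 47.4 and 97.9 FPKM in WT. Like Cd86 it was highest in the replicate 3 libraries. All 14 transcription factors and receptors listed as regulators of B7 genes were tested, 7 positive and 7 negative. Ifngr2, a chain of the interferon-gamma receptor, was the highest at 103.5 to 117.5 FPKM. Of the 35 tested pathway genes 4 reached a ratio of at least 2 for replicate 3 in both genotypes (Pvr, Tnfsf14, Tnfrsf4 and Rel, named after their values were seen), beside the 2.88% of all tested genes.

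The genes whose pattern over the 6 libraries was nearest to each member were sought among the 7636 genes that averaged 5 FPKM or more, by the root mean square difference of log2(FPKM + 1) after centring each gene on its own mean. Nearest to Cd28 was C77080, at a difference of 0.11 on the log2 scale, followed by Bag5 at 0.13 and Hipk2 at 0.16. C77080 stood at 25.5, 28.8 and 29.6 FPKM in Cd28 KO and 35.5, 33.1 and 51.2 FPKM in WT. Nearest to Cd86 were Ccl7, a chemokine gene, at 0.15, Ifrd1 at 0.15 and Ier3 at 0.16, and Ccl7 stood at 3.06, 3.44 and 18.7 FPKM in Cd28 KO and 2.09, 1.33 and 18.6 FPKM in WT. Nearest to Cd274 were Malt1 at 0.06, Hs6st1 at 0.07 and Cdt1 at 0.11, and nearest to Icosl were Klhl24 and Lifr, both at 0.04, and Tmlhe at 0.06. Vsir was nearest to Mgat1 at 0.02, Cd80 to Car13 at 0.05 and Cd276 to Castor1 at 0.12. With 6 libraries and 7636 genes some near matches arise for any pattern, so these are descriptions of the libraries.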

How the data were processed

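RNA from 6 macrophage cultures, 3 Cd28 KO and 3 WT, was sequenced, and the authors deposited 1 FPKM value per Entrez gene and library. The tools were Bowtie and RSEM and the build GRCm38, per the submitters' processing notes, which name no versions. RSEM divides reads among similar genes by estimation. The deposited files list only values above 0 (lowest 0.01), and a missing gene was taken as 0. Symbols and gene coordinates came from RefSeq for GRCm38.p6, which matched 14551 of 14574 identifiers. Depth is unknown, so no counting intervals are given.

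The 10172 genes that averaged 1 FPKM or more were tested with limma 3.58.1 in R 4.3.3, two-sided, with a trend, on log2(FPKM + 1), which understates changes of low genes. Benjamini-Hochberg adjustment ran over all tested genes, and a gene was called at an adjusted p below 0.05. The fit was also run on simulated data, and no result here rests on that outcome. Alternatives were other pseudocounts, filters and scalings, array weights, the replicate number as a block, replicates 1 and 2 alone, each library left out, and, chosen after seeing the data, a batch term for replicate 3. Deviations of same-numbered libraries from their group means correlated across genes at 0.752, 0.505 and 0.783 for replicates 1, 2 and 3. Within replicates 1 and 2 the crossed pairs correlated at 0.663 and 0.535. The limit of 0.1 set for pairing is passed by either matching of these libraries and cannot choose between them. Their pairing is therefore assumed, and no label states it. Named were every member, direct partners, the highest gene of each list, genes whose groups did not overlap, and the nearest 3 genes in pattern. Members and lists were chosen with earlier results of these data known. Tables and figures were made with Matplotlib 3.10.9, NumPy 2.4.6 and pandas 2.3.3 under Python 3.11.15.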

Additional observations from a re-analysis of the deposited data

How the results depend on the processing

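Pseudocounts of 0.1 and 0.5, a minimum of 5 FPKM, no filter, TPM scale, quantile normalization, the replicate block, the batch term for replicate 3 and replicates 1 and 2 alone kept the direction of each of the 7 genes and called none of them, with Cd80 and Cd276 not tested at the minimum of 5 FPKM. The replicate block changed no call among the 7 genes or the 35 pathway genes. TPM scale moved the median of all genes to -0.06. With array weights Cd28 (-0.49) and Icosl (0.45) passed, so that 1 member was called higher and 1 lower. Leaving out 1 library at a time called none of the 7, and the log2 difference ranged from -0.77 to -0.39 for Cd28 and from 0.16 to 0.45 for Icosl. It changed sign for the other 5, from -0.58 to 1.22 for Cd86, -0.028 to 0.40 for Cd80, -0.82 to 0.11 for Cd274, -0.55 to 0.15 for Cd276 and -0.14 to 0.027 for Vsir. For Cd86 the extremes came from leaving out replicate 3 of Cd28 KO (lowest) or of WT (highest), which leaves 1 of the 2 high libraries in the fit. The log2 difference of the Cd86 to Cd80 ratio, 0.12, ranged from -0.62 to 0.79 in the same way.

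Over all genes limma called 2 higher and 0 lower. It called 14 higher and 4 lower with the replicate block, 20 and 8 with the batch term, 40 and 31 in replicates 1 and 2, 604 and 324 with array weights, and 2 and 3 without a filter. Adjusted p values over these alternatives ran from 0.0230 to 1.0 for Cd28 and from 0.0214 to 1.0 for Icosl. The unknown depth limits what can be said of genes below 1 FPKM, such as Ctla4 and Pdcd1lg2, where a value of 0 is no proof of absence.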
